A study of Mus musculus with 80 samples.

Results

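The genes examined were Tat, Tdo2, Sds, Gls2, Got1, Gpt2, Hpd, Prodh and Hal, which encode liver enzymes that break down amino acids or move their nitrogen. They were taken by symbol from the raw gene count table, 1 row for each of the 9 names among 78275 rows, and all 9 were among the 21187 genes left by the filter on low counts. The libraries come from livers of C57BL/6J mice of both sexes, 8 to 12 weeks old, which had been kept in a 12 h light and 12 h dark cycle and then moved to constant darkness. Control mice kept their chow throughout, whereas food was taken from fasted mice at circadian time (CT) 10. Tissue from the middle of the left lobe was collected at 10 times from CT8 to CT44, with 2 males and 2 females for each treatment and time, 80 libraries in all. Fasted mice at CT8 had not yet lost their food, and those from CT12 to CT44 had been without it for 2 to 34 h. The mice were housed in groups, and which of them shared a cage was not given in the sources used here. Both groups share the strain, the darkness and the age range, and the labels name no genetic change in either.

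Amino acids cannot be stored, so the liver strips their nitrogen for the urea cycle and passes the carbon skeletons to energy production, to glucose or to ketone bodies. Aminotransferases exchange amino groups between amino acids and keto acids, whereas dedicated enzymes open the rings of tryptophan, tyrosine and histidine or remove nitrogen from serine and glutamine directly. During a fast, glucagon and glucocorticoids are known to turn up several of these genes in hepatocytes. Tat and Tdo2 are classical hormone-inducible genes of the liver.

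RefSeq promoter windows, 250 bases before to 50 bases after the start of transcription on build GRCm38.p6, were at hand for 7 of the 9 genes, Tat, Tdo2, Got1, Gpt2, Hpd, Prodh and Hal. The deposited tables were made on GRCm39, so these windows serve only to show sequence. The windows of the 4 genes with the largest mean rise under fasting are shown, each read 5′ to 3′ on the strand of its gene, so that the promoters of the most responsive members can be read beside their values. Capitals mark AGGTCA or its reverse complement TGACCT, a hexamer bound by many nuclear receptors.
Got1, chr19:43524556-43524855, minus strand: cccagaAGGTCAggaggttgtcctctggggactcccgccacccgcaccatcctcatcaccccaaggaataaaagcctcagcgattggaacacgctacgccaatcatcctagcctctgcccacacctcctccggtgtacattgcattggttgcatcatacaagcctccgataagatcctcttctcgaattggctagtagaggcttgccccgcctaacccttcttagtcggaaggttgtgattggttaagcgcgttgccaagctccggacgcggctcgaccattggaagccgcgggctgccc
Tdo2, chr3:81975679-81975978, minus strand: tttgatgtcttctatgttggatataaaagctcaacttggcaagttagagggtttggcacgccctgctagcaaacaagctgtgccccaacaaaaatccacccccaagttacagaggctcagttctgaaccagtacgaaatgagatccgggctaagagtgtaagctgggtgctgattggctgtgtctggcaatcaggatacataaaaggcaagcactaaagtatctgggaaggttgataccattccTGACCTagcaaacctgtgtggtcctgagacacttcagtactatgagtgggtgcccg
Tat, chr8:109990186-109990485, plus strand: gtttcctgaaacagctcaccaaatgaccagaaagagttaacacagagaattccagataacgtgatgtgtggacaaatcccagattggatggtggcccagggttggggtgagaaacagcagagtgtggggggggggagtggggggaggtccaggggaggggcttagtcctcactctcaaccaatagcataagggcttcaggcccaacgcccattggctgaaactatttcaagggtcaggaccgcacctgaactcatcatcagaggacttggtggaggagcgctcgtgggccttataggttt
Gpt2, chr8:85492326-85492625, plus strand: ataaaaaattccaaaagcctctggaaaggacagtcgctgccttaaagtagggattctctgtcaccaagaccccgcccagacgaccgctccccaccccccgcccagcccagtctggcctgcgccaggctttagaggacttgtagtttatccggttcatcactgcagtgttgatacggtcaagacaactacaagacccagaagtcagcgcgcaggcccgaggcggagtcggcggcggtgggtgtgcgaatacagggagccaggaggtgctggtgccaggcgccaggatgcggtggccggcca

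The hexamer began 244 bases before the start in Got1 and, on the opposite strand, 6 bases before the start in Tdo2. These were 2 of the 7 windows, while 16.3% of all 32851 windows in the table hold it. Searched on both strands by exact letters, the E-box CACGTG (7.15% of all windows), the glucocorticoid-element hexamer TGTTCT (19.0%), the cAMP-element core TGACG (20.8%), the FOXO-type core GTAAACA (3.65%) and the C/EBP-type core TTGCAA (6.23%) stood in none of the 7. A match or its absence in so short a window is a description of these letters and says nothing of binding.

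The libraries held 25534901 to 59927771 counts (median 42303883). The ribosomal RNA gene Rn18s-rs5 took more than 1% of counts in 7 libraries and 31.3% in control CT8 female replicate 2, and leaving that library out changed no call of the 9 genes. In 40 libraries the sex, and in 40 the treatment, in the detailed label conflicted with the title. Groups here follow titles, and sex-linked expression matched the sex in the title in 80 of 80. Hepatocyte markers stood at 55560 to 103274 CPM, median 80130.2, in control and 64920.2 to 119993 CPM, median 84940.5, in fasted libraries. Values are CPM, the usual unit of a gene's counts relative to the library's total, here with totals adjusted by TMM, and sets of 4 values are given in the order male 1, male 2, female 1, female 2. In bulk tissue, fewer cells of a type and less RNA per cell cannot be told apart.

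Together the 9 genes took 0.548% to 1.09% of all counts in control libraries from CT12 to CT44, with a median of 0.725%, and 0.720% to 2.41% in fasted ones, with a median of 1.24%. Per kilobase of exon, with lengths from GENCODE M21, the order in control livers began with Hpd at 935 ± 151 CPM per kb (mean ± SD, n = 36) and Tat at 800.3 ± 294. Tdo2 followed at 275 ± 64.4. Sds at 128 ± 62.4, Gls2 at 126 ± 35.8, Got1 at 105 ± 40.2, Hal at 89.7 ± 26.0 and Gpt2 at 89.4 ± 20.6 differed by less than the SD of Sds, and Prodh was lowest at 32.9 ± 9.76. In fasted livers Tat stood first at 1719.5 ± 879.7 CPM per kb ahead of Hpd at 1295 ± 191, a gap smaller than the SD of Tat. Tdo2 at 616 ± 171 and Got1 at 367 ± 251 came next, then Sds at 229 ± 105, Gpt2 at 169 ± 39.2, Gls2 at 117 ± 37.0, Hal at 107 ± 36.3 and Prodh at 26.5 ± 7.76. Got1 had thus passed Sds and Gls2, and its fasted SD, the widest of the 9 relative to the mean, covered the gaps to both neighbours.

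**Figure D1:**
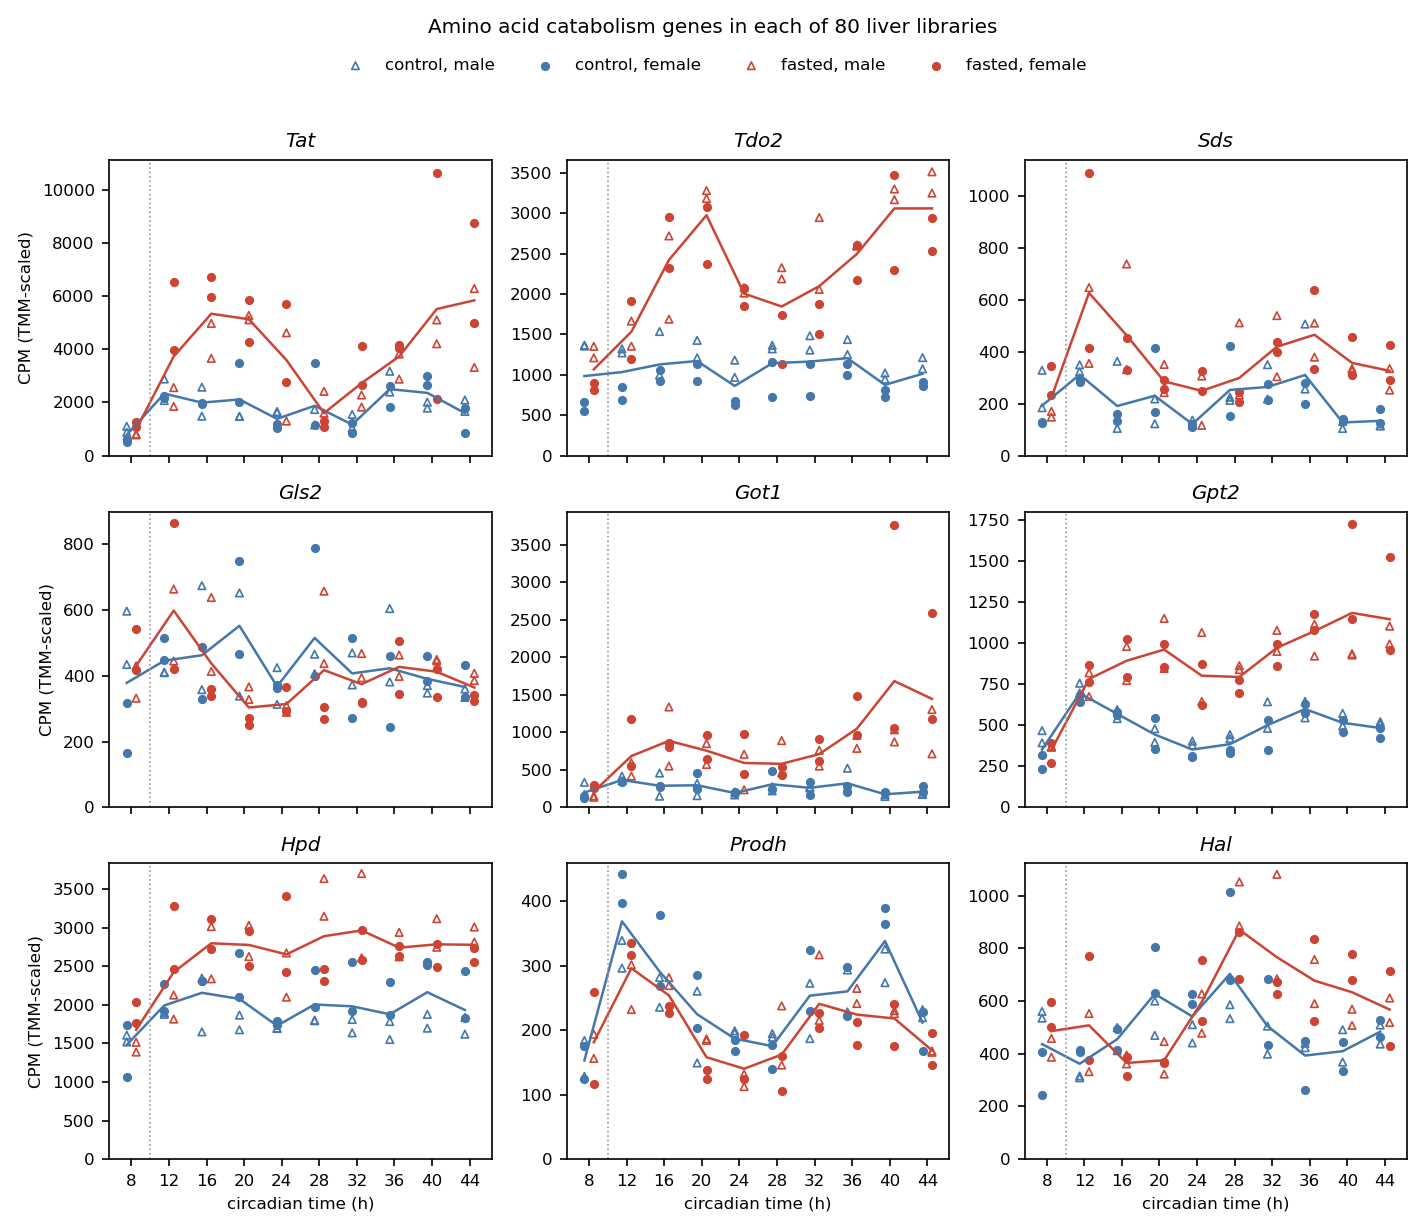
Level of each gene (vertical axis, TMM-scaled CPM from 0) in every library against circadian time (horizontal axis, h), with triangles for males, circles for females, lines for the mean of 4 and a dotted line where food was removed. Fasted values of Tdo2, Gpt2 and Got1 separate from control values at most times from CT16, whereas those of Gls2 overlap at every time.

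Over CT12 to CT44, 7 of the 9 genes rose in fasted livers, 1 fell and 1 did not pass the test (edgeR's quasi-likelihood test with Benjamini-Hochberg adjustment over all genes, adjusted p under 0.05). Among all genes tested, 29.5% were called higher and 32.9% lower. The median log2 difference of the 9 was 0.88, against -0.020 over all genes. Got1, Tdo2, Tat, Gpt2 and Sds rose most, Hpd and Hal rose by less than 1.5-fold, Prodh fell and Gls2 did not pass.

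Got1 encodes the cytosolic aspartate aminotransferase, which takes part in the malate-aspartate shuttle and in gluconeogenesis. Control livers from CT12 to CT44 held 144 to 522 CPM with a median of 253, and fasted livers held 234 to 3761 CPM with a median of 825. Of the 36 fasted libraries, 31 lay above the highest control library. The mean log2 difference was 1.72 ± 0.13 (SE), a 3.29-fold rise (adjusted p = 2.87e-16). At CT16 the control values were 457, 148, 268 and 278 CPM and the fasted values were 1338, 549.9, 855 and 800.3. At CT40 they were 167, 144, 198 and 187 CPM in control and 1034, 873, 1064 and 3761 CPM in fasted livers, and at CT44 172, 174, 198 and 288 against 714, 1303, 2586 and 1181. Every fasted mouse was above every control mouse at these 3 times, and the second fasted female of CT40 stood far above the other 3 of its group. The log2 difference at CT40 was 3.13 ± 0.40 (adjusted p = 1.75e-08) and, without that female, 2.56.

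Tat encodes tyrosine aminotransferase, the first step of tyrosine breakdown. Its control livers ranged from 835 to 3504 CPM with a median of 1799, and its fasted livers from 1079 to 10630.3 CPM with a median of 4095. The mean log2 difference was 1.03 ± 0.11, 2.05-fold (adjusted p = 6.37e-11). At CT16, 6 h into the fast, control livers held 2575, 1483, 1942 and 1972 CPM and fasted livers 4975, 3660.3, 6735 and 5989, and at CT44 they held 1663, 2092, 851 and 1787 against 3318, 6288, 8769 and 5002. The groups did not overlap at either time, though the call at CT16 was lost without male replicate 2 (adjusted p = 0.0655). At CT28, in the subjective day, control values of 1155, 1736, 1136 and 3470.2 CPM met fasted values of 2418, 1596, 1079 and 1299.7, and the groups overlapped with the fasted mean below the control mean. That log2 difference was -0.24 ± 0.34 and did not pass the test (adjusted p = 0.690). At CT40 the fasted values were 5107, 4210.0, 2118 and 10630.3 CPM, with 1 female inside the control range of 1788, 2012, 2993 and 2647 and the other far above it. The difference there, 1.24 ± 0.34, fell to 0.46 without the second fasted female and was no longer called (adjusted p = 0.318).

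Gpt2 encodes the mitochondrial alanine aminotransferase, which turns alanine into pyruvate. Control livers held 309 to 756 CPM with a median of 514, and fasted livers held 626 to 1726 CPM with a median of 932. The mean log2 difference was 0.93 ± 0.053, 1.91-fold (adjusted p = 5.42e-20). At CT12, 2 h after food was removed, values were 696, 756, 640.2 and 687 CPM in control and 675, 819, 764 and 868 CPM in fasted livers, which overlapped. At CT24 control values of 379.5, 404, 309 and 315 stood against fasted values of 1065, 644, 872 and 626, with no overlap. From CT16 to CT44 all 4 fasted mice lay above all 4 control mice at each of 8 times.

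Tdo2 encodes tryptophan 2,3-dioxygenase, which opens the ring of tryptophan and starts the kynurenine pathway. Control livers held 626 to 1537 CPM with a median of 1067, and fasted livers held 1132 to 3515 CPM with a median of 2325. The mean log2 difference of 1.15 ± 0.055, 2.22-fold, had the smallest p of the 9 genes (adjusted p = 1.29e-22). At CT12 control values of 1272, 1322, 687 and 855 CPM and fasted values of 1355, 1666, 1202 and 1913 overlapped over both sexes, while within each sex both fasted mice were above both control mice. At CT20 they were 1427, 1210.4, 1128 and 920.2 CPM against 3185, 3282, 3074 and 2368, and at CT40 946, 1024, 723 and 811 against 3302, 3170.1, 2304 and 3469. The groups were apart at both times, and in the fit of all libraries Tdo2 was the only 1 of the 9 called at every time from CT12 to CT44. Its call at CT12 (adjusted p = 0.0384) was lost without male replicate 1 (0.290), male replicate 2 (0.579) or female replicate 2 (0.143), with no sex in the model (0.380) and in the 8 libraries of that time alone (0.126), all adjusted p. The CT28 call was lost without male replicate 1 (log2 0.64), male replicate 2 (0.71) or female replicate 1 (0.36). The CT32 call was lost without male replicate 2 (log2 0.75).

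Hpd encodes 4-hydroxyphenylpyruvate dioxygenase, the step after Tat in tyrosine breakdown. Control livers held 1550.2 to 2666 CPM with a median of 1874, and fasted livers held 1815 to 3701 CPM with a median of 2727. Its rise was small, with a mean log2 difference of 0.47 ± 0.046, 1.39-fold (adjusted p = 1.84e-12). At CT24 control values of 1697, 1692, 1733 and 1792 CPM lay below fasted values of 2672, 2098, 2428 and 3414, and at CT40 1875, 1697, 2559.9 and 2519 overlapped with 3115, 2746, 2781 and 2491 by 2 control females above the second fasted female. Log2 differences of the 8 called times, CT16 to CT44, ran from 0.38 to 0.61. Each of these calls was lost without male replicate 1 or male replicate 2, those at CT16, CT20, CT28, CT36 and CT40 without either, and those at CT16 and CT40 also with no filter on low counts and with no sex in the model. The long non-coding gene Gm26745 overlaps Hpd on the same strand and was not tested. Psmd9, a proteasome assembly gene that overlaps Hpd on the opposite strand, went from a mean of 30.4 to 62.5 CPM (log2 1.02), far below the level of Hpd.

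Sds encodes serine dehydratase, which releases ammonia from serine to give pyruvate. Control livers held 105 to 507 CPM with a median of 189, and fasted livers held 117 to 1092 CPM with a median of 335. The mean log2 difference was 0.88 ± 0.12, 1.84-fold (adjusted p = 6.34e-09). At CT12 the values were 350.0, 324, 291 and 284 CPM in control and 356, 648, 415 and 1092 CPM in fasted livers, apart by a few CPM only at the nearest pair, and the difference of 0.98 ± 0.35 did not pass (adjusted p = 0.151). At CT40 they were 131, 105, 135 and 139.8 against 335, 327, 312 and 456, clearly separate, with a log2 difference of 1.49 ± 0.35 (adjusted p = 6.54e-04). Sds was called at 4 of 9 times, CT16, CT24, CT40 and CT44, and was higher in the fasted mean at all 9. The CT24 call was lost without male replicate 1 (adjusted p = 0.446), female replicate 1 (0.153) or female replicate 2 (0.0807), and the CT44 call without female replicate 1 (0.0772). On the opposite strand it overlaps Plbd2, which also rose (log2 0.50), and whether the counting used strand was not given in the sources used here.

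Hal encodes histidine ammonia-lyase, which takes the amino group off histidine. Control livers held 263 to 1012 CPM with a median of 466, and fasted livers held 315 to 1081 CPM with a median of 579.6. Its mean log2 difference was 0.24 ± 0.068 (adjusted p = 0.00215), and its differences at single times had both signs. At CT20 control values of 600.0, 469.6, 806 and 632 CPM lay above fasted values of 323, 446, 364 and 368, a log2 difference of -0.72 ± 0.21 (adjusted p = 0.00436). At CT36 control values of 439, 423, 447 and 263 CPM lay below fasted values of 590.1, 758, 525 and 837, a difference of 0.79 ± 0.21 (adjusted p = 0.00303). Neither pair of groups overlapped. The call at CT20 was lost without male replicate 1 (adjusted p = 0.194), and that at CT36 without male replicate 2 (0.127) or female replicate 2 (log2 0.44, adjusted p = 0.0964). Without male replicate 2 of every group, or in females alone, the mean difference of Hal was 0.14 or 0.15 and was not called (adjusted p = 0.225 and 0.246).

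Prodh encodes proline dehydrogenase, the first enzyme of proline breakdown in mitochondria. Control livers held 139.8 to 442 CPM with a median of 234, and fasted livers held 105 to 334 CPM with a median of 208. It was the only 1 of the 9 called lower in the mean, with a log2 difference of -0.32 ± 0.066, 0.804 of the control level (adjusted p = 5.29e-05). At CT40 control values were 326, 274, 364 and 389 CPM and fasted values 225, 230.3, 241 and 176, all 4 fasted below all 4 control, with a difference of -0.63 ± 0.20 (adjusted p = 0.00980). Without the second fasted female of CT40 this difference was -0.50 and was not called (adjusted p = 0.0850), nor was it without male replicate 1 (0.130) or male replicate 2 (0.0519). In males alone the mean difference was -0.18 (adjusted p = 0.0535). Prodh overlaps Dgcr6 on the opposite strand, which also fell (log2 -0.36).

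Gls2 encodes the liver form of glutaminase, which splits ammonia from glutamine beside the urea cycle. Control livers held 244 to 788 CPM with a median of 408, and fasted livers held 249 to 865 CPM with a median of 376, so that the ranges nearly coincided. The mean log2 difference was -0.13 ± 0.081 and did not pass the test (adjusted p = 0.164, unadjusted p = 0.117). At CT20 control values of 652, 338, 751 and 468 CPM stood against fasted values of 328, 367, 270.4 and 249, with 1 control male inside the fasted range. That was its only called time, at -0.87 ± 0.25 (adjusted p = 0.00422), and without male replicate 1 it was -0.57 and not called (adjusted p = 0.223). With no filter on low counts the mean was -0.14 and passed the threshold (adjusted p = 0.00558). Leaving CT12 out moved the mean to -0.20 and past the threshold (adjusted p = 0.0377). Females alone passed as well at -0.29 (adjusted p = 0.0437), while males alone gave 0.037. Spryd4, on the opposite strand of Gls2, had a log2 difference of 0.12.

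Time by time, none of the 9 genes was called at CT8, before food removal, where 1.33% of all genes were. After 2 h, at CT12, only Tdo2 was called (background 1.60% of genes). With no filter on low counts Tat, Sds, Gls2, Got1 and Hal were called there as well, with almost the same log2 differences. With and without the filter these were 0.55 and 0.55 for Tat, 0.98 and 0.99 for Sds and 0.42 and 0.43 for Gls2. For Got1 they were 0.86 and 0.87, and for Hal 0.49 and 0.50. The share of all genes called at CT12 with no filter is not reported here. At CT16 there were 6 (23.4%), all higher. At CT20, 5 were called higher and 3 lower, 8 of 9 against 36.6% of all genes, the lower ones being Gls2, Prodh and Hal. Without male replicate 1 these 3 and Hpd were not called (adjusted p = 0.223, 0.0526, 0.194 and 0.0521), which left 4 of 9. Prodh was also lost without male replicate 2 (0.477) or female replicate 2 (0.107). The counts were then 6 at CT24 (24.1%), 3 at CT28 (21.0%), 6 at CT32 (17.7%) and 5 at CT36 (26.8%), all higher. Without male replicate 1 the CT24 calls of Tat (log2 0.79), Sds (0.53), Got1 (1.01) and Hpd (0.51) were lost. Without male replicate 2 the CT32 calls of Tat (log2 0.97), Tdo2 (0.75), Got1 (1.30), Hpd (0.41) and Hal (0.33) were lost. Calls at CT28, CT36, CT40 and CT44 were also lost in some of these fits. At CT40, 7 were higher and 1 lower (39.9%), and at CT44 6 were higher (39.4%). The fewest calls after CT12 came at CT28, where only Tdo2, Gpt2 and Hpd passed. Of the 81 pairs of gene and time, 49 were called, 45 of them higher, and 28 to 49 were called when 1 replicate number of 1 sex was left out at a time. All 4 fasted mice lay above all 4 control mice in 36 pairs, 44.4%, against 10.4% of all gene and time pairs, and below them in 3 pairs, 3.70%, against 10.6%. Pairs of the same gene share no libraries between times, but the genes share every library.

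**Figure D2:**
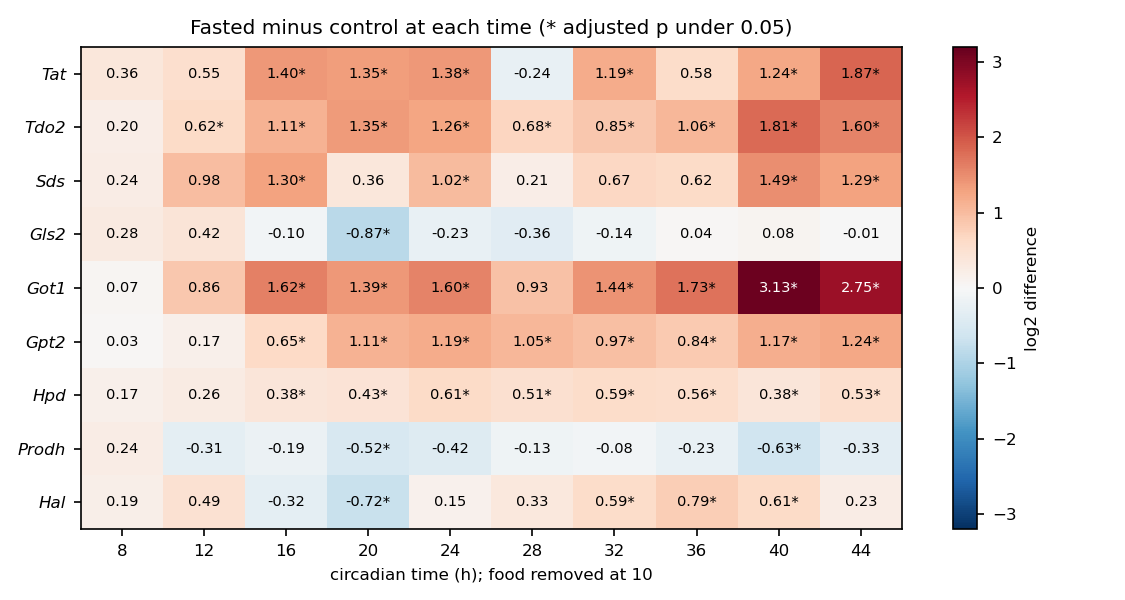
Fasted minus control (log2, colour and printed value) for each gene (rows) at each circadian time (columns, h), with a star where the adjusted p was under 0.05. No value at CT8 is starred, values for Got1 reach 3.13 at CT40, and Hal turns from -0.72 at CT20 to 0.79 at CT36.

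The mean fasting effect was next compared between the sexes. Only Hpd was called, 1 of 9 against 12.4% of all genes, with a rise of 0.63 ± 0.065 on the log2 scale in males and 0.32 ± 0.065 in females (difference -0.31 ± 0.091, adjusted p = 0.020). From CT12 to CT44 fasted males held 1815 to 3701 CPM, median 2779, and fasted females 2302 to 3414 CPM, median 2679.9. In control livers, here with CT8 included, males held 1518 to 2346 CPM, median 1739.7, and females 1061 to 2666 CPM, median 2184. The value of 1061 was that of control CT8 female replicate 2, where Rn18s-rs5 took 31.3% of counts. From CT12 to CT44 the lowest control female held 1733 CPM. Leaving out either male replicate lost the call, at an adjusted p of 0.191 without male replicate 1 and 0.308 without male replicate 2. Tdo2 rose by 1.01 ± 0.078 in males and 1.29 ± 0.079 in females, a difference of 0.28 ± 0.11 that did not pass (adjusted p = 0.0813). Gls2 gave 0.036 ± 0.11 in males and -0.30 ± 0.11 in females, which did not pass either (-0.33 ± 0.16, adjusted p = 0.183). Without female replicate 2 Tdo2 and Gpt2 were called (log2 differences 0.36 and 0.34). With no filter on low counts 5 of the 9 were called, Tat, Gls2, Got1 and Prodh beside Hpd, with almost the same log2 differences. With and without the filter these were 0.37 and 0.36 for Tat and -0.33 and -0.34 for Gls2. For Got1 they were 0.31 and 0.30, and for Prodh -0.26 and -0.27. The share of all genes called for the sex difference with no filter is not reported here.

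In control livers alone, 3 of the 9 genes differed between females and males over all 10 times, where 39.2% of all genes did. Tdo2 was lower in females, with 20 control females at 548 to 1165 CPM, median 857, and 20 control males at 946 to 1537 CPM, median 1289. That difference was -0.55 ± 0.074 on the log2 scale (adjusted p = 4.30e-08). Hpd was higher in females by 0.25 ± 0.061 (adjusted p = 9.36e-04), which was not called without male replicate 2 (0.22, adjusted p = 0.0597). Gpt2 was lower in females by a log2 difference of -0.20 ± 0.071 (adjusted p = 0.0189), a call that was lost in several alternatives, such as without CT8 (-0.16, adjusted p = 0.0809). Tat, Sds, Gls2, Got1, Prodh and Hal gave log2 differences between -0.11 for Sds and 0.097 for Hal and did not pass.

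The length of the fast was set apart from the phase of the clock by comparing CT36, CT40 and CT44 with CT12, CT16 and CT20, the same phases 24 h earlier. The effect was larger on the second day for 4 of the 9 genes, Got1, Hal, Tdo2 and Gpt2, and smaller for none, while 9.91% of all genes were called larger and 11.3% smaller. Got1 went from 1.29 ± 0.22 to 2.54 ± 0.22 (difference 1.25 ± 0.30, adjusted p = 0.00215), and still differed without the second fasted female of CT40 (1.06, adjusted p = 0.00670). Hal went from -0.18 ± 0.12 to 0.55 ± 0.12 (difference 0.73 ± 0.17, adjusted p = 0.00124). The gains of Tdo2 (0.46 ± 0.13, adjusted p = 0.0101) and Gpt2 (0.44 ± 0.13, adjusted p = 0.0117) were smaller. Without male replicate 1 none of the 4 was called, with differences of 1.01 for Got1, 0.71 for Hal, 0.43 for Gpt2 and 0.39 for Tdo2. Without male replicate 2 the calls of Tdo2 (0.54) and Gpt2 (0.45) were lost. Gpt2 was also lost without female replicate 2 (0.36) and without CT12 and CT36 (0.34, adjusted p = 0.185). Without CT16 and CT40 Got1 alone of the 4 was called. The tests by time, sex and day draw on the same libraries.

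**Figure D3:**
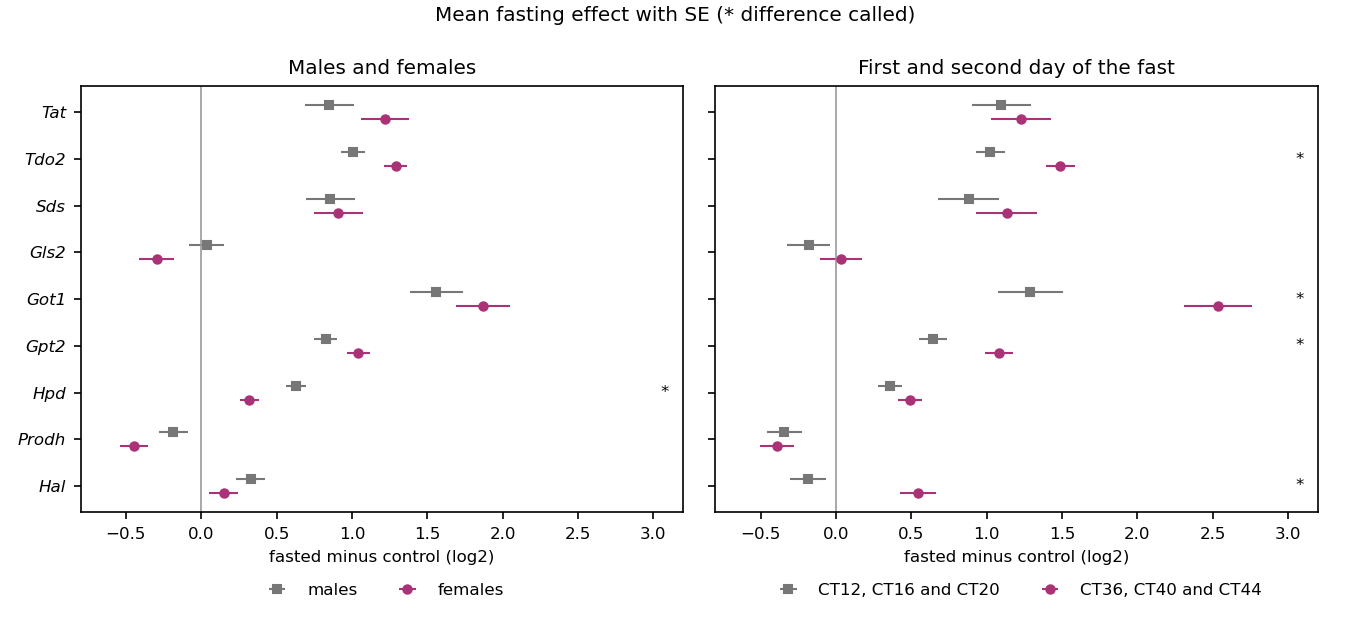
Fasted minus control (log2, horizontal axis, points with SE bars) for each gene, on the left in males (grey squares) and females (purple circles) and on the right on the first (grey) and second (purple) day, with a star where the difference between the pair of points was called. The star on the left is Hpd, and those on the right are Tdo2, Got1, Gpt2 and Hal.

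Daily rhythms were then fitted with a 24 h cosine and sine. In the 40 control libraries 5 of the 9 genes were called rhythmic, against 41.8% of all genes. The swing was widest for Prodh, a peak-to-trough log2 difference of 0.98, 1.97-fold, with a peak at CT14.4 (adjusted p = 1.11e-05). Gpt2 peaked at CT13.9 with 0.84 (adjusted p = 1.73e-06), and Hal at CT1.09 with 0.74 (adjusted p = 6.01e-04), so that Hal peaked around the opposite side of the day. Sds peaking at CT9.75 (0.85, adjusted p = 0.0216) and Tat at CT16.1 (0.83, adjusted p = 0.0275) passed by less. Leaving out either male replicate lost both, and Tat was also lost without female replicate 1 and over CT12 to CT44 alone. Tdo2, Gls2, Got1 and Hpd did not pass, with adjusted p from 0.123 for Hpd to 0.945 for Gls2.

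In a fit of CT12 to CT44 with a linear trend for each treatment, 8 of the 9 genes were called rhythmic in fasted livers. Hpd was the exception, and 50.4% of all genes were called. In fasted livers circadian time and hours without food rose together, so a rhythm and a non-linear change with the fast cannot be told apart. The same holds for the rhythm differences below. Tat swung most, by a log2 difference of 1.52, peaking at CT17.5, followed by Got1 at 1.03 and CT16.1 and Sds at 1.02 and CT12.0. Over CT20 to CT44 the calls of Got1 (0.92, adjusted p = 0.0576), Sds (0.75, 0.0912) and Gpt2 (0.45, 0.0555) were lost. Gls2, not called in control livers (0.070 in the same fit), reached 0.59 with a peak at CT11.4. That call was lost when male replicate 2 or female replicate 2 was left out and over CT20 to CT44 (0.29, adjusted p = 0.369). The direct test of the Gls2 rhythm between fasted and control livers did not pass (adjusted p = 0.104). Tested directly, the rhythm differed between fasted and control livers for Tat, Tdo2, Got1, Gpt2 and Hal, 5 of 9 against 23.2% of all genes. Hal peaked at CT1.35 in control and CT6.05 in fasted livers (adjusted p = 7.76e-04). Tdo2 went from 0.17, not called, to 0.69 with a peak at CT18.4 (adjusted p of the difference = 0.00161). Gpt2 went the other way, from a swing of 0.80 to 0.33, the latter not called without the second fasted female of CT40 (adjusted p of the difference = 0.00594). The differences for Got1 (adjusted p = 0.0258) and Tat (adjusted p = 0.0385) were nearer the threshold. When 1 replicate number of 1 sex was left out at a time, the difference of Hal alone was called each time, and that of Tdo2 was lost without female replicate 2 (adjusted p = 0.0571). Prodh had a swing of 0.91 in control and 0.92 in fasted livers, and its difference did not pass (adjusted p = 0.325).

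**Figure D4:**
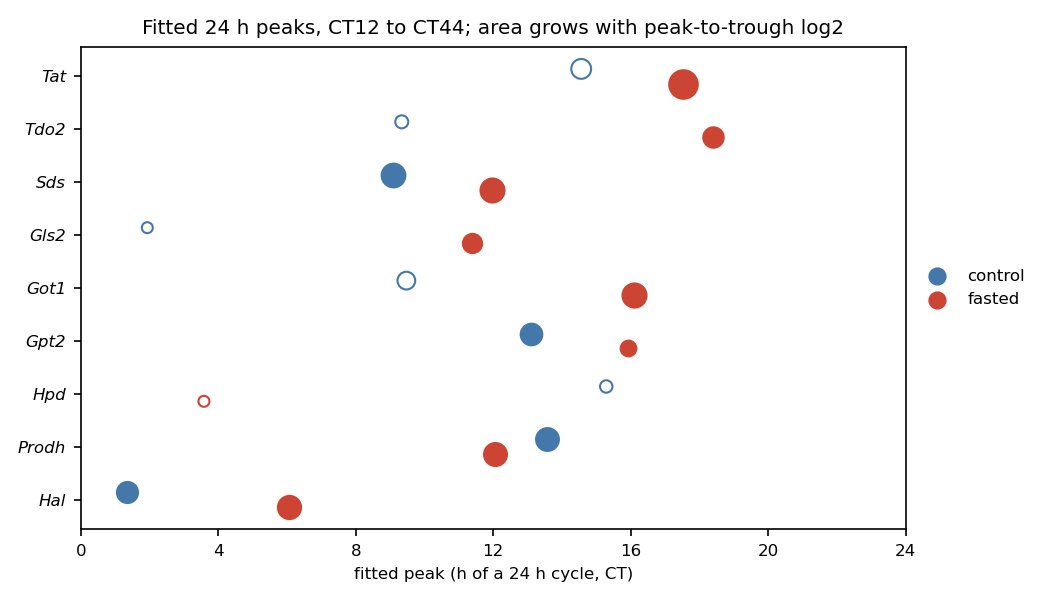
Fitted peak (horizontal axis, h of a 24 h cycle) of each gene in control (blue) and fasted (red) livers from CT12 to CT44, filled where the rhythm was called and with an area that grows with the peak-to-trough log2 difference. Hal moves from CT1.35 to CT6.05, and Tdo2, Gls2, Got1 and Tat are filled only in the fasted group.

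Exon usage was tested on counts per exon bin, which the files number without coordinates. The usage of at least 1 bin changed in 6 of the 9 genes, Gpt2, Hal, Tdo2, Prodh, Hpd and Tat, where 14.7% of all genes were called (edgeR's diffSpliceDGE with Simes' method per gene). The bins were minor ones. Bin 18 of Gpt2 held 0.692 ± 0.0939% of the gene's bin counts in control and 0.955 ± 0.298% in fasted libraries (mean ± SD, n = 36), a log2 change of 0.33 against the rest of the gene (adjusted p = 1.18e-12). Bin 13 of Prodh held 0.693 ± 0.187% of the gene's bin counts in control and 0.537 ± 0.202% in fasted libraries (-0.28, adjusted p = 7.29e-05), and bin 5 of Tdo2 0.315 ± 0.0876% of the gene's bin counts in control and 0.379 ± 0.109% in fasted libraries (0.19, adjusted p = 7.79e-05). Bin 11 of Gpt2 held a mean of 0.151% in control and 0.222% in fasted libraries, and bin 8 held 0.0620% and 0.0864%. Bins 3, 23 and 24 of Hpd held 0.0542%, 0.0182% and 0.0178% in control and 0.0661%, 0.0144% and 0.0141% in fasted libraries. Bin 3 of Tat went from 0.0369% to 0.0494%, and bin 18 of Hal from 0.0455% to 0.0681%. Bin 8 of Gpt2 and bin 18 of Hal had mean control counts of only 22.3 and 21.9. With at least 10 counts in every library Hal was not called. Ranges of the shares overlapped between control and fasted libraries for each named bin. Tat, Prodh and Hal were not called by a gene-level F test (adjusted p = 0.365, 0.425 and 0.124), and limma's diffSplice did not call Tat (0.998) and Hal (0.499). Without CT40, Gpt2 alone was called in males alone, and 3 to 4 of the 9 when 1 replicate number of 1 sex was also left out, Tat in none of these 4 fits. Among the exon columns of fasted CT40, 3 matched another library of their group better than their own, so these 4 libraries were fitted without sex, and there the largest Got1 sum, 187781, stood in the column named for female 1, whereas in the gene table the largest Got1 count, 102126, was that of female 2.

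A list of 60 further genes of amino acid breakdown was set beside the 9. Of the 59 that were tested, 19 rose in the mean of CT12 to CT44, 27 fell and 13 did not pass, or 32.2% higher and 45.8% lower against 29.5% and 32.9% of all genes. Their median log2 difference was -0.051. Both tryptophan and branched-chain genes went both ways, with 3 of 9 higher and 4 lower in the first group and 6 of 15 higher and 4 lower in the second. Histidine genes held 2 higher and 1 lower of 3, phenylalanine and tyrosine genes 1 higher and 3 lower of 6, and serine, threonine and glycine genes 2 higher and 5 lower of 8 tested. Genes for glutamine, glutamate, aspartate and alanine held 2 higher and 3 lower of 5, proline and ornithine genes 1 and 3 of 4, propionate genes 0 and 2 of 4 and lysine genes 2 and 2 of 5.

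The largest rises of the list were those of Sdsl, a serine dehydratase relative, with 10.5 ± 5.08 CPM in control and 29.1 ± 14.7 CPM in fasted livers (mean ± SD, n = 36), and of Aass, the first enzyme of lysine breakdown, with 345 ± 71.5 CPM in control and 916 ± 303 CPM in fasted livers. Their log2 differences were 1.47 ± 0.13 and 1.36 ± 0.070. Oat, which converts ornithine (0.73 ± 0.067), Ppm1k, the phosphatase that activates the branched-chain keto acid dehydrogenase (0.67 ± 0.057), and Dhtkd1 of lysine breakdown (0.53 ± 0.035) followed. The largest falls were those of Gcat of threonine breakdown (-1.08 ± 0.057), Kyat1 (-0.83 ± 0.050), Haao (-0.80 ± 0.053) and Ido2 (-0.78 ± 0.11) of the tryptophan pathway, and Qdpr, which regenerates the cofactor of phenylalanine hydroxylase (-0.61 ± 0.055). Tdo2 at the head of the tryptophan pathway rose, while the other genes of it went both ways. Kmo (0.25 ± 0.040), Kynu (0.14 ± 0.049) and Aadat (0.48 ± 0.048) were called higher, and Afmid (-0.28 ± 0.089) was called lower beside Kyat1, Haao and Ido2. Haao stood at 453 ± 59.2 CPM in control and 270.1 ± 86.2 CPM in fasted livers.

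Likeness of time courses was described by Pearson's r over the 20 means of treatment and time, which share libraries within a mean and the common response to fasting. Among the 9, Tdo2 and Got1 were closest (r = 0.96), followed by Got1 and Gpt2 (0.93) and Gpt2 and Hpd (0.92). Over all genes with a mean log2 CPM of at least 1, the 2 most alike were Slain2 and Ppip5k2 for Tat (both 0.95), Gm6055 and Itgb3 for Tdo2 (0.98 and 0.97), and Fh1 and Tdo2 for Got1 (0.96 and 0.96). Hpd was most like Mat1a and Asl (both 0.94). For Sds they were Klf15 and Slc7a2 (0.89 and 0.89), for Hal Rwdd3 and Gm11767 (0.92 and 0.89), for Prodh Slc47a1 and Vac14 (0.91 and 0.89) and for Gls2 Uroc1 and Gm52965 (0.82 and 0.79). Gls2 had the weakest best match of these 8 genes.

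Markers of several cell types moved with the fast as well, hepatocyte markers with 3 of 5 higher and 2 lower. Summed pericentral hepatocyte markers stood at 3016 to 9486 CPM, median 6395, in control and 4065 to 13459 CPM, median 9511, in fasted libraries, with 2 of 5 genes called higher and 2 lower. Periportal hepatocyte markers stood at 2579 to 3961 CPM, median 3248, in control and 1897 to 3826 CPM, median 3044, in fasted libraries (1 of 5 higher, 3 lower). Kupffer cell markers were at 182 to 541 CPM, median 284, in control and 118 to 390.3 CPM, median 212, in fasted libraries, with 5 of 5 called lower, and cholangiocyte markers at 24.6 to 66.0 CPM, median 39.0, in control and 6.78 to 50.3 CPM, median 23.7, in fasted libraries, with 4 of 5 lower. Pancreatic markers were at most 29.1 CPM in sum and adipocyte markers at most 2.57 CPM in any library from CT12 to CT44. Endothelial markers stood at 223 to 328 CPM, median 273, in control and 229 to 364 CPM, median 279.9, in fasted libraries (2 of 5 higher, 2 lower), stellate markers at 199 to 370.4 CPM, median 277, in control and 181 to 389 CPM, median 267, in fasted libraries (1 higher, 3 lower), and red blood cell markers at 53.4 to 287 CPM, median 157, in control and 33.0 to 271 CPM, median 102, in fasted libraries (2 lower). The part of these shifts in the values of the 9 genes was not tested.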

How the data were processed

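RNA was measured in 80 liver libraries prepared from poly-A RNA with a stranded kit. The deposited tables hold raw read counts per gene and per exon bin, which the authors made with Trimmomatic and HISAT2 on GRCm39 according to the submitters' processing notes, which also name DESeq2. Their counting tool, annotation and strand setting were not given in the sources used here. Every column matched a library of the series by name.

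Groups of treatment, time and sex came from the titles, with 2 libraries each and every library taken as 1 mouse. Replicates of a group differed by more than sampling noise (lowest chi-square per degree of freedom 14.8). Where nothing states separate animals, p-values measure only the spread between these libraries. All tests ran over the whole table with edgeR 4.0.16 in R 4.3.3. They used filterByExpr, TMM scaling and a quasi-likelihood fit of 40 group means, with Benjamini-Hochberg adjustment and calls at an adjusted p under 0.05. The mean effect averages CT12 to CT44 over both sexes. The sex and day differences are contrasts in the same fit, and rhythms were fitted with sine and cosine terms of 24 h. Folds and log2 differences come from the fits, with the SE taken as the log2 difference over the square root of its F statistic, and log2 CPM values with a prior count of 2 served only to compare time courses and as a cutoff on level. Exon bins were tested with diffSpliceDGE on 235680 bins of 13728 genes. Rows assigned to no gene, which took 8.28% to 25.9% of a library's exon-bin counts, were left out. The scripts were tested on simulated counts. Alternatives included DESeq2 1.42.0, limma-voom (limma 3.58.1), other scalings and filters, single sexes, a block on the replicate number and the removal of replicates, times or single libraries. Removal of fasted CT40 female replicate 2 was chosen after seeing the data.

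The genes named beside the 9 are the 5 largest rises and 5 largest falls called among the pathway list with a mean log2 CPM of at least 1, the 2 genes most like each of the 9 (those of Gpt2 are not reported here), and up to 3 called exon bins of each gene by smallest p. The 9 genes and all lists were chosen with earlier results of these data known.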

Additional observations from a re-analysis of the deposited data

Results flagged for a closer look

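In 6 of 180 groups of 4 mice (a gene in 1 treatment at 1 time), 1 mouse stood apart from the other 3, where chance alone gives about 5% of groups. The gap to the nearest mouse, as a share of the whole range of the group, was 0.962 for Tdo2 in fasted CT36 female 2, 0.960 for Hpd in control CT16 male 2 and 0.895 for Hal in control CT36 female 2. It was 0.876 for Hpd in control CT12 female 2, 0.864 for Got1 in fasted CT40 female 2 and 0.842 for Hal in fasted CT32 male 2. The Got1 value and the fasted Hal value were the highest of their genes from CT12 to CT44.

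The effect of fasting differed between groups in 5 tests (edgeR's quasi-likelihood test). For Hpd the difference of females minus males was -0.31 on the log2 scale. On the second day minus the first it was 1.25 for Got1, 0.73 for Hal, 0.46 for Tdo2 and 0.44 for Gpt2.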

How the results depend on the processing

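Of 3285 single values recomputed or held to a stricter threshold, 3056 stayed on their side of the threshold, 198 lost the call and 31 gained it. No called value turned its sign, whereas 49 of the 3056, called in neither setting, did. Part of this was fixed beforehand. Swings of rhythms, adjusted p-values of exon usage and values only held to a stricter threshold could not change sign. The cause was not tested for any of these changes in call or sign. A fold of at least 1.5 left 4359 genes and 5 of the 9 in the mean fasting effect. For the sex difference, no filter on low counts gave 5 of the 9, with the log2 differences of the newly called genes almost unchanged. An adjusted p under 0.01 gave 1106 genes and 0 of the 9. The day difference held 2812 genes without CT12 and CT36, 1778 genes and 1 of the 9 without CT16 and CT40, and 2473 genes and 2 of the 9 at an adjusted p under 0.01. The control rhythm held 5104 genes in males alone, 4692 genes and 3 of the 9 in females alone, 3 of the 9 at an adjusted p under 0.01, and 3595 genes with a swing of 1.5-fold or more. From CT20 to CT44 the fasted rhythm was called in 4 of the 9 and the rhythm difference in 2. At an adjusted p under 0.01 the rhythm difference held 2720 genes and 3 of the 9. Exon usage held 989 genes with at least 10 counts in every library, 3 of the 9 by the gene-level F test and, with CT40 also removed, 477 genes and 1 of the 9 in males alone and 1179 genes in females alone.

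With 1 replicate number of 1 sex left out in turn, groups left with 1 mouse were assumed to vary like the others. The mean effect then held 10835 to 13458 genes and 7 to 8 of the 9, the sex difference 238 to 2831 genes and 0 to 3 of the 9, and the day difference 1449 to 4719 genes and 0 to 4 of the 9. Control sex differences held 5741 to 8722 genes and 1 to 3 of the 9, and control rhythms 6464 to 8790 genes and 3 to 5 of the 9. Fasted rhythms held 8422 to 11050 genes and 5 to 8 of the 9, and rhythm differences 2635 to 5396 genes and 2 to 5 of the 9. Gene and time pairs held 25717 to 50669 calls, 28 to 49 of them in the 9 genes. Exon usage, with CT40 removed as well, held 925 to 1213 genes and 3 to 4 of the 9.

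The difference between replicates 1 and 2 was compared between fasted and control groups of the same time and sex. It correlated above 0.1 in only 1 of 20 pairs of groups (range -0.056 to 0.249). Such a comparison within a time cannot show whether a replicate number marks a shared litter, cage or day across times, and the labels do not say. A block on the replicate number gave 13189 genes and 8 of the 9 in the mean effect, 2545 and 1 for the sex difference, 4408 and 4 for the day difference, 5903 and 2 for control sex differences, 8182 and 5 for the control rhythm, 10474 and 8 for the fasted rhythm, 4730 and 5 for the rhythm difference, 48212 gene and time pairs with 49 in the 9 genes, and, without CT40, 1632 and 6 for exon usage. Among the values of the 9 genes from the gene table, only Gpt2 between control sexes lost its call (adjusted p = 0.0906). With 4 mice per treatment and time and 2 per sex, small differences at single times could not be told from the spread.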
